A study of Mus musculus with 3 samples.

Results

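The p53 response, Fanconi anaemia and DNA repair genes of mouse bone marrow were described in 3 libraries of vehicle-treated animals. The members are the entries whose symbol starts with Fanc or stands in a fixed list of p53, checkpoint and repair genes, which gave 44 of the 23238 distinct symbols of the deposited files. Of these, 43 are p53 or repair genes and 1, Fancd2os, entered through its symbol only, being the transcript opposite the end of Fancd2. The mice were male wild type C57BL/6, 6 weeks old, and received sterile water by gavage for 28 days, with marrow taken on day 29 and its red blood cells lysed. The series sets this vehicle against Asari Radix et Rhizoma, a herbal root and rhizome, but the herb-treated arm was not analysed here and no value compares treatments. Whether each library is its own mouse is not stated in the labels, so the p-values measure only the spread between these samples, which may be technical.

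A cell that meets DNA damage signals through the kinases ATM and ATR and their partners CHK1 and CHK2 to p53, which MDM2 and MDM4 otherwise hold in check. p53 then raises genes that halt the cell cycle or adjust metabolism, among them Cdkn1a and the sestrins. Lesions are removed by separate routes: the Fanconi proteins unhook crosslinks between strands and hand the break to homologous repair, excision repair replaces damaged bases or nucleotides, mismatch repair corrects replication errors, and end joining ligates broken ends and also completes V(D)J recombination in lymphocytes. Loss of the Fanconi route is known for causing bone marrow failure, because blood stem cells depend on it.

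All 44 members had reads in every library and all passed the minimum of 30 reads over the 3 libraries. Replicates 1, 2 and 3 held 9168435, 8104828 and 9137125 gene-assigned reads. Levels are reads per 1000000 gene-assigned reads (CPM), and the library kit gives about 1 fragment per transcript, so CPM values of different genes were compared without a length correction. Together the members held 1348, 1253 and 1152 CPM in replicates 1, 2 and 3, and their median level was 15.3 CPM. The highest was Rad50 at 153 ± 18.2 CPM (SD, n = 3), at percentile 95.2 of the entries with reads, and the lowest was Fancf at 1.85 ± 0.692 CPM, at percentile 31.0. In the order of mean levels, 39 of the 43 neighbouring pairs had overlapping ranges over the libraries. The 4 steps without overlap lay below Rad50, between Parp1 and Atm, between Cdkn1a and Fancl, and between Ercc4 and Xrcc5.

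**Figure D1:**
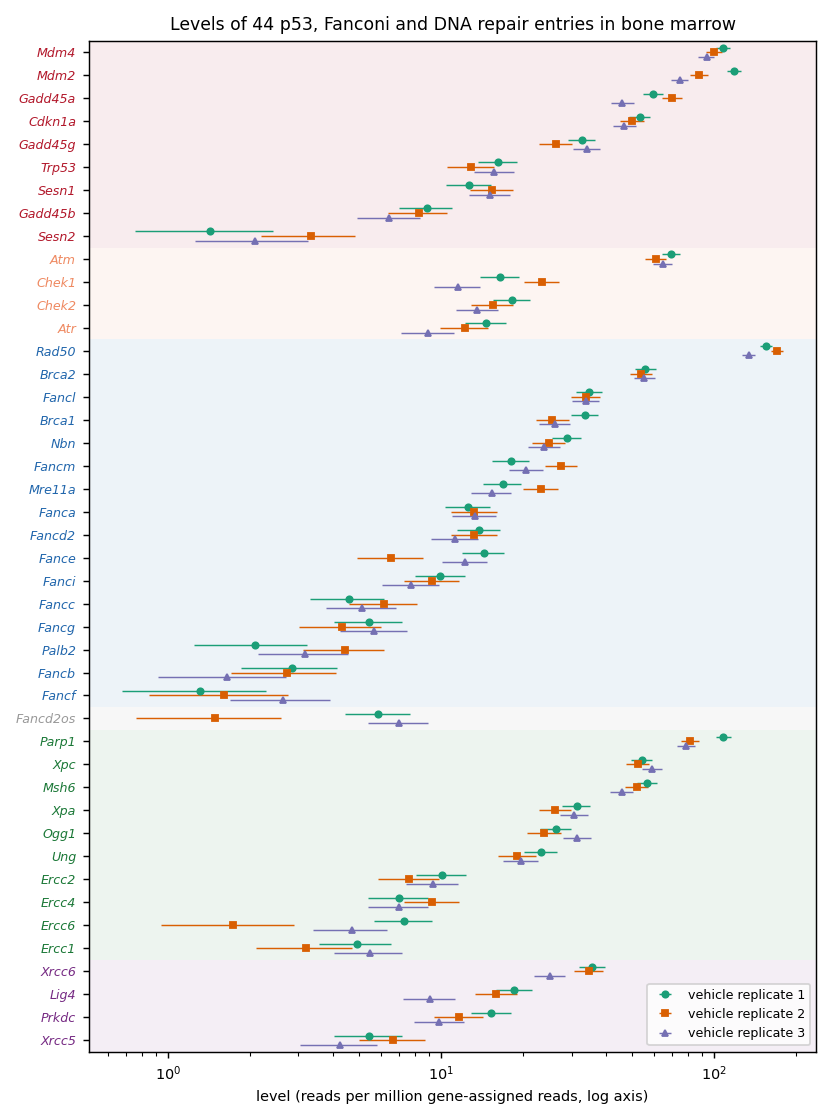
Level of each member (CPM, log axis) in vehicle replicates 1, 2 and 3, with exact 95% Clopper-Pearson intervals as bars, members grouped by role and ordered by mean level. Levels run from 1.31 CPM for Fancf to 170 CPM for Rad50, and the intervals of the lowest members are the widest.

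Each gene was tested for whether a library departed from the others by more than counting noise (exact two-sided binomial test, Benjamini-Hochberg adjustment over 11833 genes, called at 0.05). This test called 19 of the 44 members, against 55.6% of all tested genes. With trimmed-mean (TMM) scaling, which sets the libraries to a common middle, it called 16 members against 50.9% of tested genes, and 14 members were called on both scales against 45.1%. A call with a ratio of at least 1.5 between the highest and lowest library was made for 11 members, against 27.7% of tested genes. The median coefficient of variation (CV) of the members was 15.5%, against 17.1% over all tested genes, where counting alone would give medians of 8.61% and 8.22%. On totals Fancl, Brca2, Fanca and Fancg had CVs below their counting value, as did 14.2% of tested genes. With TMM scaling 9 members did, against 15.9% of tested genes, and of the 4 only Fancl and Fanca were among them. On library totals the median gene was 0.15 log2 units higher in replicate 1 than in the others, and 0.01 with TMM scaling. On totals 25 members were highest in replicate 1, against 49.2% of tested genes, and with TMM scaling 12 were, against 33.2%. Replicate 3 was the lowest library for 20 members on totals, against 42.4% of tested genes, and for 19 with TMM scaling, against 32.7%. Replicate 2 was the lowest for 16 members on totals, against 37.6%, and for 13 with TMM scaling, against 34.8%.

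Under the other settings the share of members called stayed below that of all tested genes. Median-of-ratios scaling called 16 of 44 members against 50.8% of tested genes, the authors' own scaling 17 against 51.0%, and totals without Rn45s and globins 14 against 51.9%. A chi-square test called 21 against 58.9%. With minimums of 10, 100 or 1 reads the count was 19, of 44, 40 and 44 members tested, against 52.7%, 59.9% and 44.3%. Without replicate 1 there were 13 calls against 34.0%, without replicate 2 there were 13 against 38.4%, and without replicate 3 there were 14, of 43 members tested, against 37.9%.

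**Figure D2:**
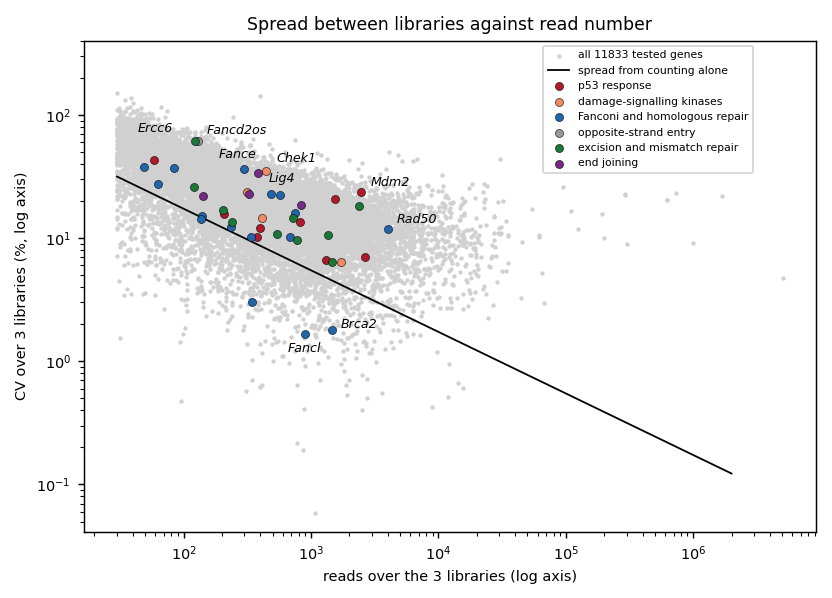
CV over the 3 libraries (%, log axis) against reads over the 3 libraries (log axis) for the members, coloured by role, and for all 11833 tested genes in grey, with the line that counting alone would give. The members lie within the cloud of all genes, with Fancd2os and Ercc6 at 61.0% and Fancl and Brca2 at 1.66% and 1.81%, all on library totals.

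Promoter sequences are shown for the member of each role with the largest ratio between libraries among those called on both scales, so the sequences were chosen by spread. They are the 250 bases before a transcription start annotated by RefSeq on GRCm38.p6, 5′ to 3′ on the gene's strand. The gene positions given below are from another annotation, GENCODE. By those positions the Chek1 window lies inside the gene, and the Fance and Lig4 windows reach a few bases into theirs. Capitals mark matches to 7 motifs searched on both strands: CCAAT, the box bound by NF-Y, TTTGAA, the cell cycle homology region, TTCCCGC and TTGGCGC, both E2F sites, GGGCGG, the GC box, TGACG, the core of the cyclic AMP response element, and the p53 decamer.
Mdm2, chr10:117710759-117711008, minus strand: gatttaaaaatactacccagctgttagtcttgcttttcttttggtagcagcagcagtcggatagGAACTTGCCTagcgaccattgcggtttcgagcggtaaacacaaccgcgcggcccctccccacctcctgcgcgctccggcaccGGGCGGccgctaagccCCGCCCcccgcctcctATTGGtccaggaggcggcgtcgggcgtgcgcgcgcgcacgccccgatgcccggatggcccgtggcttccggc
Chek1, chr9:36726659-36726908, minus strand: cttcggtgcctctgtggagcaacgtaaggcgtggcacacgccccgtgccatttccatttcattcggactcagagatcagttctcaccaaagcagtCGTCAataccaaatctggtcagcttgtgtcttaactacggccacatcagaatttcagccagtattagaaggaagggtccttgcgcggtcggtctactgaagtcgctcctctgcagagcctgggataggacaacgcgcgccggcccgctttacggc
Fance, chr17:28313280-28313529, plus strand: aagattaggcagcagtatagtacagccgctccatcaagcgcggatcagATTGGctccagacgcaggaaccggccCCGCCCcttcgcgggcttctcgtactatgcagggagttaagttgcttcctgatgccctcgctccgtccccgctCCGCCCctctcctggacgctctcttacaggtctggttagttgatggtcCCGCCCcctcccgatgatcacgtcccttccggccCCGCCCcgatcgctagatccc
Ercc6, chr14:32513271-32513520, plus strand: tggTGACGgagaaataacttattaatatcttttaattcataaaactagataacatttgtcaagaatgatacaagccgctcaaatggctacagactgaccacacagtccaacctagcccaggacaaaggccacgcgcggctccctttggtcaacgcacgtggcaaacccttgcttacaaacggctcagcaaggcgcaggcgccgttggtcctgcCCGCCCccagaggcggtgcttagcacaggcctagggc
Lig4, chr8:9977681-9977930, minus strand: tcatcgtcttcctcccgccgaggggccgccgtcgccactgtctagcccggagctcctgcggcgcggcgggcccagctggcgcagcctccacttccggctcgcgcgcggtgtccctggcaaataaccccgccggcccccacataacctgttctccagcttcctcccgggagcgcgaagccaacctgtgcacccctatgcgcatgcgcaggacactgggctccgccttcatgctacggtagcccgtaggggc
The Mdm2 window held a match to the p53 decamer, a CCAAT box and a pair of GC boxes, and the Fance window held a CCAAT box and 4 GC boxes. The Ercc6 window held a GC box and a TGACG core, and the Chek1 window a TGACG core. The Lig4 window shown held no match, while another Lig4 window of the table held a GC box. Of the 44 members, 39 had a window in the RefSeq table, 43 windows in all, and in 2 of these windows matches to different motifs overlapped. CCAAT was in 24 of the 43 windows (55.8%), against 33.8% of all 32851 windows of the same length. GGGCGG was in 25 (58.1%), against 32.7%, and TGACG in 12 (27.9%), against 17.8%. TTCCCGC was in 6 windows (14.0%, those of Brca2, Chek2, Fancb, Fancg, Fancm and Xrcc6), against 3.82%, and TTGGCGC in 3 (6.98%, those of Ercc2, Fancf and Sesn1), against 1.97%. The p53 decamer was in 7 (16.3%), those of Cdkn1a, Fanca, Fancg, Gadd45a, Mdm2, Sesn1 and Trp53, against 7.13%. TTTGAA was in 0 of the 43 windows, against 15.99% of all windows. The comparison windows include those of genes without reads here, whereas all members had reads. Whether the shares differ from those of expressed genes alone was not tested. These matches are letters in a window and were not tested for binding.

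Among the p53 response genes, the inhibitors Mdm4 and Mdm2 had the highest levels, and the damage-inducible genes spanned a wide range down to Sesn2. The 9 genes summed to 410, 374 and 335 CPM in replicates 1, 2 and 3, a mean of 373 ± 37.9 CPM (SD, n = 3). Of the 9, 4 were called on library totals and 3 with TMM scaling, against 55.6% and 50.9% of tested genes. Trp53 (chromosome 11, 69580359 to 69591873), encoding p53 itself, had 16.1, 12.8 and 15.7 CPM, and its libraries did not pass the test (adjusted exact binomial p = 0.268). Mdm2 (chromosome 10, 117688875 to 117710758), the ubiquitin ligase that degrades p53 and is itself a p53 target, had 118, 88.1 and 74.6 CPM. Replicate 1 was the high library, with a ratio of 1.58 to replicate 3 (adjusted exact binomial p = 4.72e-18, and 3.93e-10 with TMM scaling), and the call held without any single library. Mdm4, the related inhibitor without ligase activity of its own, had 108, 99.7 and 93.7 CPM. Its call on totals (adjusted exact binomial p = 0.0401) was absent with TMM scaling (1), without replicate 1 (0.356) and without replicate 3 (0.205).

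The cell cycle inhibitor gene Cdkn1a (chromosome 17, 29090976 to 29100727), encoding p21, had 53.4, 50.1 and 46.8 CPM and did not pass the test (adjusted exact binomial p = 0.337). Its ratio of highest to lowest library was 1.14 on totals and 1.04 with TMM scaling. The paralogs Gadd45a, Gadd45b and Gadd45g encode small acidic proteins induced by stress. Gadd45a (chromosome 6, 67035096 to 67037457) had 59.6, 70.2 and 46.1 CPM, highest in replicate 2 and lowest in replicate 3. It was called on totals and with TMM scaling (adjusted exact binomial p = 5.80e-08 and 2.09e-07) and without each library in turn. Immediate early genes, the first to respond to many stimuli, summed to 2619, 2882 and 2457 CPM on totals and to 2458, 2935 and 2571 CPM with TMM scaling. On both scales this sum was highest in replicate 2, and the part of these genes in the Gadd45a values was not tested. Gadd45g had 32.7, 26.3 and 34.1 CPM, lowest in replicate 2, and was called on both scales (adjusted exact binomial p = 0.0157 and 0.0267), but not without replicate 2 (0.747) or with Rn45s and globins left out of the totals (0.120). Gadd45b had 8.83, 8.27 and 6.46 CPM and did not pass (adjusted exact binomial p = 0.297). Of the sestrins, stress proteins that restrain mTORC1, Sesn1 had 12.7, 15.3 and 15.1 CPM. Sesn2 had 1.42, 3.33 and 2.08 CPM from 13, 27 and 19 reads. Sesn1 did not pass on library totals (adjusted exact binomial p = 0.416), nor did Sesn2 (0.101), though Sesn2 did without replicate 3 (0.0391).

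A list of 22 further p53 targets held 20 genes with at least 30 reads, of which 10 were called on totals and 11 with TMM scaling, against the same 55.6% and 50.9%. The antiproliferative gene Btg2 was the most abundant at 190 ± 24.8 CPM (SD, n = 3), followed by Trp53inp1, a stress-induced cofactor of p53, at 125 ± 18.3 CPM and the mTORC1 inhibitor gene Ddit4 at 52.9 ± 7.46 CPM. Each of these 3 was called on both scales, but without replicate 3 neither Btg2 nor Trp53inp1 was (adjusted exact binomial p = 0.0849 and 0.237), and Ddit4 was not without replicate 2 (0.130). Tigar, encoding a fructose bisphosphatase, had the largest ratio of the called targets, with 10.03, 4.81 and 1.75 CPM in replicates 1, 2 and 3. Its ratio of highest to lowest was 5.73 (adjusted exact binomial p = 4.85e-10, and 2.20e-08 with TMM scaling), and it was called without each library in turn.

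Of the 4 damage-signalling kinases, Atm was the most abundant, and Chek1 varied most. They summed to 118, 112 and 98.7 CPM, a mean of 110 ± 10.1 CPM (SD, n = 3), with 2 called on totals and 1 with TMM scaling, against 55.6% and 50.9% of tested genes. Atm, the kinase activated by strand breaks, had 69.4, 61.1 and 64.7 CPM and did not pass (adjusted exact binomial p = 0.238). Its relative Atr, activated by single-stranded DNA at stalled forks, had 14.6, 12.2 and 8.97 CPM. Atr was called on totals (adjusted exact binomial p = 0.00976), with the authors' scaling (0.0446) and with Rn45s and globins left out of the totals (0.0193). It was not called with TMM scaling (0.0520), without replicate 1 (0.110) or without replicate 3 (0.321). Chek1 (chromosome 9, 36708482 to 36727065), the S phase checkpoint kinase downstream of ATR, had 16.4, 23.3 and 11.5 CPM. Replicate 2 was high and replicate 3 low, a ratio of 2.03 (adjusted exact binomial p = 3.47e-06, and 1.02e-06 with TMM scaling), and the call held without each library. Chek2, downstream of ATM, had 18.1, 15.4 and 13.6 CPM and did not pass with all libraries (adjusted exact binomial p = 0.131), although it did without replicate 2 (0.0458).

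The proliferation marker Mki67 was also highest in replicate 2, at 1159, 1340 and 1051 CPM, and lowest in replicate 3 on totals but in replicate 1 with TMM scaling, while the second most abundant marker of that list, Top2a, had 1024, 933 and 924 CPM. Summed, 10 proliferation markers held 3202, 3218 and 2900 CPM on totals and 3005, 3277 and 3034 CPM with TMM scaling. Of the 10, 4 on totals and 5 with TMM scaling were highest in replicate 2. The matching share of all tested genes is not given here. The part of these markers in the Chek1 values was not tested. In whole marrow, fewer cells of a type and less RNA per cell cannot be told apart.

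The Fanconi genes lay between percentile 31.0 (Fancf) and 76.4 (Fancl) of the entries with reads, and Fancm and Fance were the 2 that differed between libraries. The 10 Fanconi symbols other than Fancd2os summed to 117, 118 and 114 CPM, a mean of 117 ± 2.33 CPM (SD, n = 3), and to 110, 120 and 119 CPM with TMM scaling. Of the 10, the same 2 were called on totals and with TMM scaling, against 55.6% and 50.9% of tested genes. Fancl, the ubiquitin ligase of the core complex, was the highest, with 34.8, 33.8 and 33.8 CPM in replicates 1, 2 and 3 and a CV of 1.66% on totals and 4.06% with TMM scaling. The substrates of that ligase, Fancd2 and Fanci, had 13.7, 13.2 and 11.3 CPM and 9.93, 9.25 and 7.77 CPM. The core complex scaffold gene Fanca had 12.5, 13.2 and 13.2 CPM, a CV of 3.02% on totals and 8.48% with TMM scaling. None of these 4 passed the test (adjusted exact binomial p = 1 for Fancl and Fanca, 0.520 for Fancd2 and 0.543 for Fanci), nor with TMM scaling.

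Fancm (chromosome 12, 65075603 to 65132058), the translocase that brings the core complex to DNA, had 17.9965, 27.5 and 20.5 CPM, highest in replicate 2. It was called on totals (adjusted exact binomial p = 0.000501) and with TMM scaling (0.000162), but not without replicate 2 (0.379). Fance (chromosome 17, 28313519 to 28326572), the subunit that bridges the core complex to FANCD2, had 14.3, 6.54 and 12.3 CPM from 131, 53 and 112 reads. Replicate 2 was the low library, with a ratio of 2.18 (adjusted exact binomial p = 1.42e-05, and 4.55e-05 with TMM scaling), and without it the gene was not called (0.390). The other core subunits were low: Fancg had 5.45, 4.32 and 5.69 CPM, and Fancc had 4.58, 6.17 and 5.14 CPM. The X-linked Fancb had 2.84, 2.71 and 1.64 CPM, and Fancf had 1.31, 1.60 and 2.63 CPM from 12, 13 and 24 reads. None of these 4 passed the test on either scale. Fancd2os had 5.89, 1.48 and 7.004 CPM from 54, 12 and 64 reads, with replicate 2 low (adjusted exact binomial p = 2.26e-07, and 0.536 without replicate 2). Its annotated gene overlaps the end of Fancd2, whose own lowest library was replicate 3.

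In the homologous repair branch, Rad50 stood well above its partners, and it and Mre11a were highest in replicate 2. The 16 Fanconi and homologous repair genes summed to 409, 420 and 371 CPM, a mean of 400.3 ± 25.6 CPM (SD, n = 3), with 5 called on totals and 5 with TMM scaling, 4 of them shared, against 55.6% and 50.9% of tested genes. RAD50, MRE11 and NBN form the complex that senses and trims broken ends. Rad50 (chromosome 11, 53649519 to 53707319) had 155, 170 and 134 CPM and was called on totals and with TMM scaling (adjusted exact binomial p = 4.09e-07 and 3.73e-07) and without each library, the largest of those values being 0.0421 without replicate 3. Mre11a, encoding the nuclease, had 16.8, 23.2 and 15.3 CPM and was called (adjusted exact binomial p = 0.00124, and 0.000478 with TMM scaling), though not without replicate 2 (0.604). Nbn had 28.8, 24.8 and 23.9 CPM and did not pass (adjusted exact binomial p = 0.156).

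Brca2 (chromosome 5, 150522630 to 150570329), a tumour suppressor of homologous repair, had 56.0, 54.0 and 55.5 CPM, a CV of 1.81% on totals and 5.03% with TMM scaling (adjusted exact binomial p = 1, and 0.589 with TMM scaling). Brca1, which promotes resection and recruits BRCA2 through PALB2, had 33.6, 25.5 and 26.0 CPM. Its replicate 1 was high on totals (adjusted exact binomial p = 0.00397), but the gene was not called with TMM scaling (0.130) or without replicate 1 (0.945). Palb2, the bridge between both proteins, had 2.07, 4.44 and 3.17 CPM from 19, 36 and 29 reads. It was not called on totals (adjusted exact binomial p = 0.109), and was called with TMM scaling (0.0440) and without replicate 3 (0.0264).

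Of 24 further homologous repair and Fanconi-associated genes, 23 had at least 30 reads, with 16 called on totals and 14 with TMM scaling, against 55.6% and 50.9% of tested genes. In 15 of the 23 replicate 3 was lowest on both scales, against 42.4% of tested genes on totals and 32.7% with TMM scaling. Usp1, which removes ubiquitin from FANCD2, led the list at 257, 235 and 191 CPM in replicates 1, 2 and 3. The histone variant gene H2afx had 200.5, 153 and 172 CPM, and Topbp1, an activator of ATR, had 120.1, 126 and 84.2 CPM. These 3 were called on both scales, and Topbp1 was not without replicate 3 (adjusted exact binomial p = 0.431). Ube2t, encoding the E2 enzyme that works with FANCL, had the largest ratio of the called genes at 7.96, 13.1 and 4.49 CPM (ratio 2.91, adjusted exact binomial p = 1.89e-06), and was called without each library.

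**Figure D3:**
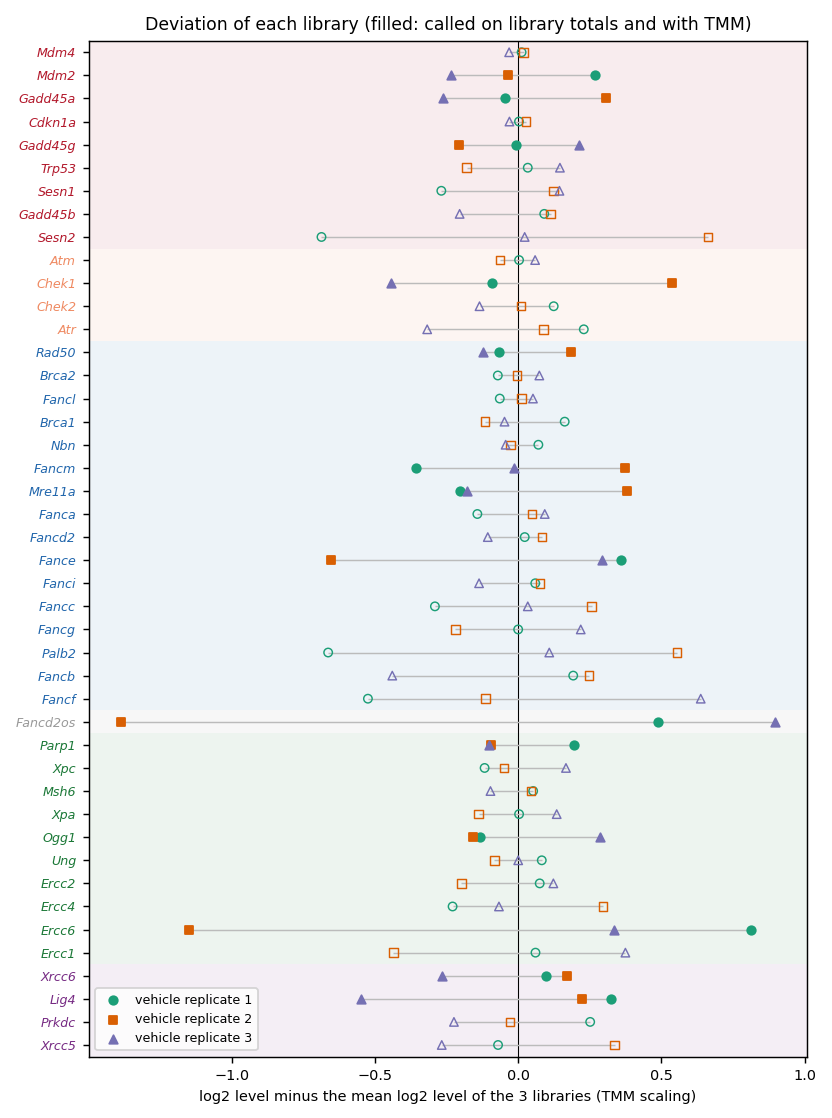
Log2 level of each member minus its mean over the 3 libraries, with TMM scaling, by role, with filled symbols for the 14 members called on library totals and with TMM scaling. Fancd2os, Ercc6 and Fance are low in replicate 2, Chek1, Fancm and Mre11a are high there, and Lig4 and Xrcc6 are low in replicate 3.

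The excision and mismatch repair genes were led by Parp1, Xpc and Msh6, and Ercc6 had the widest spread among them. The 10 genes summed to 329, 277 and 292 CPM, a mean of 299 ± 26.9 CPM (SD, n = 3), with 4 called on totals, 4 with TMM scaling and 3 on both, against 55.6%, 50.9% and 45.1% of tested genes. Xpc (chromosome 6, 91489305 to 91515888), the sensor of helix distortions in nucleotide excision repair, had 54.3, 52.4 and 59.3 CPM. It was not called on totals (adjusted exact binomial p = 0.241) but was with TMM scaling (0.0110), where replicate 3 was high. Xpa, which verifies the damage, had 31.3, 26.2 and 30.8 CPM and did not pass (adjusted exact binomial p = 0.158). The helicase gene Ercc2 (XPD) had 10.03, 7.65 and 9.30 CPM. The subunits of the XPF nuclease, Ercc4 and Ercc1, had 6.98, 9.25 and 7.004 CPM and 4.91, 3.21 and 5.47 CPM. None of these 3 was called on either scale.

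Ercc6 (chromosome 14, 32513521 to 32580990), encoding the CSB protein of transcription-coupled repair, had 7.31, 1.73 and 4.71 CPM from 67, 14 and 43 reads. In replicate 2 the exact 95% Clopper-Pearson interval ran from 0.944 to 2.90 CPM, below the intervals of the other libraries. The ratio of highest to lowest library was 4.23 (adjusted exact binomial p = 1.10e-05, and 2.49e-05 with TMM scaling), and without replicate 2 the gene was not called (0.0698). All 14 neutrophil granule and late markers were lowest in replicate 2 as well, on both scales, against 37.6% and 34.8% of tested genes. The sum of these markers was 91679, 70975 and 93828 CPM. The most abundant of them, S100a9 and S100a8, had 39569, 33845 and 40019 CPM and 29850, 20324 and 32638 CPM. Their part in the Ercc6, Fance and Fancd2os values was not tested.

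In base excision repair, Parp1 (chromosome 1, 180568924 to 180601254), whose product marks strand breaks with poly(ADP-ribose), had 108, 81.4 and 78.7 CPM. Replicate 1 was high (adjusted exact binomial p = 5.70e-11, and 2.49e-05 with TMM scaling), and without it the gene was not called (0.691). The glycosylase gene Ogg1, which removes 8-oxoguanine, had 26.3, 23.8 and 31.5 CPM, highest in replicate 3. It was called on totals (adjusted exact binomial p = 0.0216) and with TMM scaling (0.00138), but not without replicate 2 (0.0921) or replicate 3 (0.473). Camk1, which lies over the end of Ogg1 on the opposite strand, had 32.2, 23.8 and 36.1 CPM and was also lowest in replicate 2 and highest in replicate 3. Ung, which removes uracil and acts in antibody class switching, had 23.1, 19.0 and 19.6 CPM and did not pass (adjusted exact binomial p = 0.198). The mismatch sensor gene Msh6 (chromosome 17, 87975062 to 87990892) had 56.8, 52.1 and 46.0 CPM. It was called on totals (adjusted exact binomial p = 0.0212), but not with TMM scaling (0.363), without replicate 1 (0.162) or without replicate 3 (0.315).

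Among 18 further nucleotide excision repair genes, 10 were called on totals and 8 with TMM scaling, against 55.6% and 50.9% of tested genes. Ddb1, a subunit of the ultraviolet damage sensor, had 154, 139 and 127 CPM, the single-strand binding protein gene Rpa2 had 111, 86.1 and 86.0 CPM, and Rad23b, the partner of XPC, had 106, 80.8 and 83.8 CPM. All 3 were called on totals, but Ddb1 was not with TMM scaling or without replicate 1 (adjusted exact binomial p = 0.143 and 0.0747), nor were Rpa2 and Rad23b without replicate 1 (1 and 0.660). Ddb2, encoding the partner of DDB1, had the largest ratio of the called genes at 6.54, 2.71 and 6.02 CPM (ratio 2.41, adjusted exact binomial p = 0.00128, and 0.824 without replicate 2).

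Of 17 further base excision repair genes 15 had at least 30 reads. Of these, 7 were called on totals, 7 with TMM scaling and 5 on both, against 55.6%, 50.9% and 45.1% of tested genes. The replicative ligase gene Lig1 held 64.4% of that list's reads, at 628, 575 and 528 CPM, and it was called on both scales and without each library. Fen1, the flap endonuclease gene, had 57.4, 63.8 and 50.3 CPM and was called on both scales, but not without replicate 2 or replicate 3 (adjusted exact binomial p = 0.0963 and 0.180). The glycosylase gene Neil1 had the largest ratio of the called genes, at 2.94, 0.494 and 1.42 CPM from only 27, 4 and 13 reads. Its call on totals (adjusted exact binomial p = 0.00446) was absent without replicate 2 (0.0889). Of 6 further mismatch repair genes, the exact binomial test called 4 on totals and 0 with TMM scaling, against 55.6% and 50.9% of tested genes. With TMM scaling 2 had an unadjusted p under 0.05, and a chi-square test also called 0. Msh3 had 26.5, 20.4 and 25.8 CPM, and Pms2 had 15.6, 17.3 and 13.9 CPM. On totals Msh3 was called (adjusted exact binomial p = 0.0313) and Pms2 was not (0.496), and Msh3 was not called without replicate 1 (0.0594) or replicate 2 (0.891). Pms1 had the largest ratio of the called genes at 9.38, 5.80 and 6.57 CPM (adjusted exact binomial p = 0.0338, and 0.164 with TMM scaling, 0.731 without replicate 1 and 0.0900 without replicate 2).

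The end joining members were lowest in replicate 3, a library that was lowest for 42.4% of tested genes on totals and 32.7% with TMM scaling. The 4 genes summed to 75.0, 68.8 and 48.2 CPM on totals and to 70.4, 70.1 and 50.4 CPM with TMM scaling, and all 4 members were lowest in replicate 3 on both scales. Of the 4, 3 were called on totals and 2 with TMM scaling, against 55.6% and 50.9% of tested genes, and 0 without replicate 3 by the exact binomial test, where 1 had an unadjusted p under 0.05 and a chi-square test also called 0. Lig4 (chromosome 8, 9969049 to 9977686), the ligase that seals the ends, had 18.5, 15.9 and 9.08 CPM, a ratio of 2.04 (adjusted exact binomial p = 1.27e-06, and 3.22e-05 with TMM scaling, 0.338 without replicate 3). Xrcc6, encoding the KU70 subunit of the end-binding ring, had 35.8, 34.7 and 25.0 CPM (adjusted exact binomial p = 8.82e-05, and 0.00355 with TMM scaling, 0.833 without replicate 3). Its partner Xrcc5, encoding KU80, had 5.45, 6.66 and 4.27 CPM and did not pass (adjusted exact binomial p = 0.304). Prkdc, encoding the catalytic kinase that KU recruits, had 15.3, 11.6 and 9.85 CPM. Prkdc was called on totals (adjusted exact binomial p = 0.0127), but not with TMM scaling (0.116), without replicate 1 (0.456) or without replicate 3 (0.101).

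B cell markers, among them genes of cells that carry out V(D)J recombination, summed to 698, 685 and 565 CPM, also lowest in replicate 3, and to 655, 698 and 591 CPM with TMM scaling. Rag1, the recombinase gene, chosen here with its values in view, had 68.5, 55.6 and 43.9 CPM, and the most abundant B cell markers Ebf1 and Cd79b had 158, 160 and 104 CPM and 136, 141 and 121 CPM. Of the 9 B cell markers 5 were lowest in replicate 3 on totals and 4 with TMM scaling, against 42.4% and 32.7% of tested genes. Stroma and endothelium markers were lowest there as well, at 309, 263 and 214 CPM. On both scales 5 of these 6 genes were lowest in replicate 3, against the same shares of tested genes. The part of these cells in the end joining values was not tested. Of 9 further end joining genes, 2 were called on totals and 2 with TMM scaling, against 55.6% and 50.9% of tested genes. On either scale 3 of the 9 were lowest in replicate 3, against 42.4% and 32.7%. The nuclease gene Dclre1c (Artemis), which opens hairpins in V(D)J recombination, had 24.6, 27.1 and 26.4 CPM and did not pass (adjusted exact binomial p = 1). The polymerase gene Polq had 13.7, 17.3 and 11.1 CPM and was called (adjusted exact binomial p = 0.0179, and 0.209 without replicate 2 and 0.146 without replicate 3). Tdp1 had 16.03, 11.4 and 12.9 CPM and did not pass (adjusted exact binomial p = 0.0669). Polm, encoding a gap-filling polymerase, had the largest ratio of the called genes at 14.9, 7.03 and 9.96 CPM (ratio 2.12, adjusted exact binomial p = 6.99e-05, and 0.110 without replicate 1).

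Partners of a complex and paralogs were compared within each library, where scaling cancels. These are ratios of gene-assigned reads, and whether both genes of a pair were captured and assigned equally well was not tested. Of 22 ratios, 19 had the same sign in all 3 libraries. With 3 libraries the lowest two-sided p of an exact sign-flip permutation test is 0.25 (0.289 after Benjamini-Hochberg adjustment over the 22 ratios), so no ratio could pass 0.05. The smallest SD of the 22 was that of Fancd2 to Fanci, with a log2 ratio of 0.51 ± 0.03 (SD, n = 3), a 1.42-fold difference. Counting alone would give this ratio an SD of 0.21, and 4 of the 22 ratios had an SD below their counting value. Fancd2 and Fanci each have an opposite-strand entry over their end, whose reads cannot be told apart from theirs. Rad50 exceeded Mre11a by 3.07 ± 0.17 and Nbn by 2.56 ± 0.19 log2 units, or 8.38-fold and 5.91-fold. Xrcc6 exceeded Xrcc5 by 2.55 ± 0.17 log2 units (5.84-fold), although their proteins pair in the KU ring. Brca2 exceeded Palb2 by 4.16 ± 0.58 log2 units (17.9-fold) and Brca1 lay below Brca2 by a log2 ratio of -0.97 ± 0.20.

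Atm exceeded Atr by 2.47 ± 0.33 log2 units (5.55-fold), and Sesn1 exceeded Sesn2 by 2.74 ± 0.49. Mdm2 and Cdkn1a exceeded Trp53 by 2.63 ± 0.33 and 1.76 ± 0.19 log2 units. Gadd45a exceeded Gadd45b by 2.89 ± 0.17 and Gadd45g by 0.90 ± 0.49. Ercc2 exceeded Ercc6 by 1.196 ± 0.865, the widest SD of the 22. The sign changed between libraries for Mdm2 against Mdm4, with log2 ratios of 0.13, -0.18 and -0.33 in replicates 1, 2 and 3, for Chek1 against Chek2, with -0.15, 0.60 and -0.24, and for Prkdc against Lig4, with -0.28, -0.46 and 0.12.

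**Figure D4:**
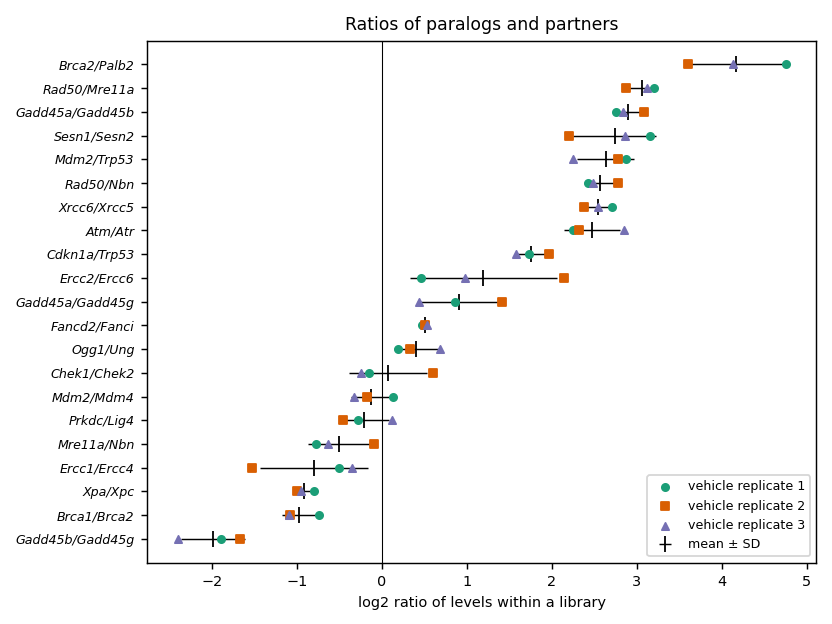
Log2 ratio of levels within each library for the 21 pairs made of 2 members, with the mean and SD over 3 libraries as bars. The Fancd2 to Fanci points lie on top of each other near 0.51, and the points of Mdm2/Mdm4, Chek1/Chek2 and Prkdc/Lig4 fall on both sides of 0.

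Another deposited entry lay over the last 1000 annotated bases of 11 members, each time on the opposite strand. Whether the authors' counting used strand is a detail not given in the sources used here. Reads of such neighbours and members therefore cannot be told apart for Fanca, Fancc, Fancd2, Fancd2os, Fanci, Fancl, Xpa, Ercc1, Ercc2, Ogg1 and Msh6. Cd3eap, over the end of Ercc1, had 709 reads against 121 for Ercc1, whereas Klc3, over the end of Ercc2, had 18 against 239. Polg, over the end of Fanci, had 19.1, 28.9 and 17.9 CPM, highest in replicate 2. Fanci was highest in replicate 1 on totals and in replicate 2 with TMM scaling. Of the 33 members without such a neighbour 16 were called on totals, and of the 11 with one 3 were, against 55.6% of tested genes. Markers of marrow cells were abundant: neutrophil genes held 85494 CPM and erythroid genes 100330 CPM on average, the latter 75526, 112641 and 112823 CPM in replicates 1, 2 and 3. Skeletal muscle markers summed to at most 9.75 CPM. The most abundant of them, Atp2a1 and Tnnt3, had 155 and 49 reads over the 3 libraries. Myh4, named here with its value in view, had 0 of 26410388 reads, which allows up to 0.114 CPM. T and NK cell markers summed to 106, 95.7 and 110 CPM, and monocyte and macrophage markers to 1196, 1057 and 1237 CPM.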

How the data were processed

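Each deposited file lists symbols with log2 values. From the values these are log2(x + 1), where x counts reads per 1000000 of a library size that the authors scaled by a rule not given in the sources used here. The submitters' processing notes name Bowtie2, bedtools and mm10. Libraries were made with a Lexogen kit with 500 ng of total RNA per the labels' protocols. For 100% of values x was a whole multiple of the worth of 1 read, within a relative tolerance of 1e-06, so whole reads were recovered. The planned test is for counts and was run on these reads. The exact binomial test compared each library with the other 2, with the smallest p multiplied by 3, on genes of at least 30 reads. DESeq2 and edgeR were not used, since there is 1 group. TMM (30% of ratios and 5% of intensities trimmed) was computed in Python 3.11.15 with scipy 1.17.1. Intervals and floors cover counting error only.

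Counts of 11833 genes were simulated with Poisson counting noise only, the noise that the test assumes. On these the test called 18.0%, 64.0%, 74.0% and 94.0% of 50 genes each changed 1.2-fold, 1.5-fold, 2-fold and 3-fold in 1 library. It called 8 of 11633 unchanged genes, a low count that follows from that assumption and does not describe libraries with further spread. Gene positions are from GENCODE M21 on GRCm38, the assembly called mm10. The members and lists were chosen with earlier results of these data known. Every member may be named, as may the 3 most abundant genes and the called gene of largest ratio of each further list, and the 2 most abundant genes of each marker list, but some of these are not reported here. The exact test was tried with other scalings, read minimums, a chi-square test, without overlapped members and without each library.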

Additional observations from a re-analysis of the deposited data

How the results depend on the processing

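The count of called members stayed within a factor of 1.5 of 19 under every alternative run: 16 with TMM or median-of-ratios scaling, 17 with the authors' scaling, 14 with Rn45s and globins left out of the totals, 21 with a chi-square test, 19 with minimums of 10, 100 or 1 reads, and 13 to 14 without 1 library. Calls on all 5 scalings were made for 13 members, and 4 of them (Mdm2, Gadd45a, Chek1 and Rad50) were also called without each library. The shares of all tested genes that met these rules are not given here, so the counts do not set the members apart. By role, p53 response calls went from 4 to 2 of 9 with Rn45s and globins left out, where 51.9% of tested genes were called. Kinase calls went from 2 to 1 of 4 with TMM or median-of-ratios scaling, where 50.9% and 50.8% were called. Without 1 library, kinase calls ranged from 1 to 3, Fanconi and homologous repair calls from 2 to 6 around 5, end joining calls from 0 to 3 around 3, and excision and mismatch repair calls were 2 each time against 4. Over all tested genes 34.0%, 38.4% and 37.9% were called without replicates 1, 2 and 3, against 55.6% with all libraries. Without overlapped members the excision and mismatch repair calls were 2 of 5 genes, against 4 of 10. A setting without 1 library also has fewer reads to test, and the part of depth in these counts was not tested. Leaving Rn45s and globins out raised every sum by construction, to 553, 163, 595, 443 and 94.8 CPM for p53 response, kinases, Fanconi and homologous repair, excision and mismatch repair, and end joining. Without the most abundant member the sums were 273, 44.7, 248, 210.0 and 32.2 CPM, and without overlapped members those of Fanconi and homologous repair and of excision and mismatch repair were 326 and 178 CPM. Of the 88 alternatives to the pair ratios, 87 kept their sign, and Chek1 to Chek2 turned from 0.07 to -0.19 without replicate 2, with a range of -0.19 to 0.23 over the libraries left out. The members with the fewest reads, Fancf with 49 and Sesn2 with 59, had ratios of 2.01 and 2.35 that did not pass the exact test, while Sesn2 passed a chi-square test (adjusted p = 0.0469), and the part of depth was not tested. No paired analysis was possible because only 1 group is described.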
